A study of Mus musculus with 3 samples.

Results

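Deep intronic CTCFL peaks were the members of a ChIP-sequencing peak list from mouse embryonic stem (ES) cells whose center, the midpoint of the interval, lay far inside a protein-coding gene. The center had to be within a protein-coding transcript but in no annotated exon. It also had to lie outside the window from 2 kb upstream to 1 kb downstream of any transcription start site (TSS), over 1 kb from protein-coding 3′ ends and over 10 kb from the nearest protein-coding TSS. Of the 7436 CTCFL peaks, 1170 met this rule (15.7%, 95% Wilson interval 14.9 to 16.6%). They made up 66.6% of all 1756 intronic peaks, the other 586 lying at up to 10 kb from a TSS.

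The ES cells carried a CTCFL_V5_GFP transgene, which doxycycline switches on, and were grown with LIF on gelatin. After 3 days with doxycycline, GFP-positive cells were collected by sorting, and cells of the same line without doxycycline or sorting were the control. V5 antibody, which recognizes the tag of the transgene product, was used for both. There was 1 library per condition. A p-value given here therefore concerns the peaks of this list, taken as separate observations, and not the condition. A CTCF antibody library was part of the series and was not analysed here, so sites bound by CTCFL alone could not be separated from sites also bound by CTCF. The list gives a start and an end on mm9 for each peak and no height, so how many reads made up a peak is unknown, and Wilson and Poisson intervals cover counting error only.

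CTCFL, also called BORIS, is a paralog of the insulator protein CTCF and is normally made in male germ cells. Both bind DNA through a central array of zinc fingers that reads a long, GC-rich motif. CTCF sites within introns and between genes are known as anchors of chromatin loops, together with the cohesin complex, whereas promoter sites often lie in CpG islands, which are rich in unmethylated CpG.

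The motif was searched as a consensus of 14 positions, CCNNNAGGNGGCGC, on both strands. Positions are counted from 1 at its 5′ end, and 10 of them are fixed. Exact matches of members are shown first because they display the motif in its intron setting. These 5 matches lay within 2 bp of the peak center, and the capitals mark the match.
Syn3 (chr10:85554817-85554860, plus strand): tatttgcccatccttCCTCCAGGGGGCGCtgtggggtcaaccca
Syn3 (chr10:85946869-85946912, minus strand): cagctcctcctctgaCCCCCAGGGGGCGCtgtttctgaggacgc
Ctnnbl1 (chr2:157582105-157582148, plus strand): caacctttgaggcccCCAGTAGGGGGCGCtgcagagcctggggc
Clip2 (chr5:134970294-134970337, plus strand): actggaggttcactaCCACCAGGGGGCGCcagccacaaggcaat
Prox2 (chr12:86433345-86433388, plus strand): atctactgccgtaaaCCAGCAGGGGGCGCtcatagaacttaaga

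A second form recurred among members that lacked the CpG of positions 12 and 13. It carried the substitutions G13A and C14G, in which the consensus base is given first and the base of the site last. The 4 widest members of this form are shown, chosen after the form had been seen.
Syt7 (chr19:10477478-10477521, plus strand): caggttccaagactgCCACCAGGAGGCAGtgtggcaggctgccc
Agap1 (chr1:91543376-91543419, plus strand): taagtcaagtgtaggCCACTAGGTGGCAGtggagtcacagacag
Sh3pxd2a (chr19:47400550-47400593, plus strand): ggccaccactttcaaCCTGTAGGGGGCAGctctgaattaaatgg
St3gal3 (chr4:117756384-117756427, minus strand): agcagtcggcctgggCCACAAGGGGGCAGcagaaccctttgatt

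The members were thinly spread over a large amount of sequence. The sequence that met the rule came to 646.1 Mb and held 1.81 members per Mb (95% exact Poisson interval 1.71 to 1.92). Introns at up to 10 kb from a TSS held 3.39 peaks per Mb, promoters (from 2 kb upstream to 1 kb downstream of a protein-coding TSS) held 27.2 and intergenic sequence held 1.56. Intergenic here means in no transcript of any type, outside every TSS window and over 1 kb from protein-coding 3′ ends, which was true of 2245 peaks, while 2344 peaks were at promoters and 1091 fell in none of these classes.

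Within deep introns the density was lower at each step away from the TSS. From 10 to 20 kb there were 384 members at 2.95 per Mb (2.66 to 3.26), and from 20 to 50 kb there were 420 at 2.06 per Mb (1.87 to 2.27). The 195 members at 50 to 100 kb gave 1.41 per Mb (1.22 to 1.62), the 117 at 100 to 200 kb gave 1.17 (0.971 to 1.41), and the 54 beyond 200 kb gave 0.725 (0.545 to 0.947). Intervals of neighboring classes overlapped only at 50 to 100 kb against 100 to 200 kb. Across the 10 kb limit there was no step, because the class at 5 to 10 kb held 2.91 peaks per Mb (2.57 to 3.28). The median distance to a protein-coding TSS was 29.75 kb, and 877 members (74.96%) lay downstream of that TSS. Both values follow in part from the rule, which asks for over 10 kb and for a center within a transcript.

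**Figure D1:**
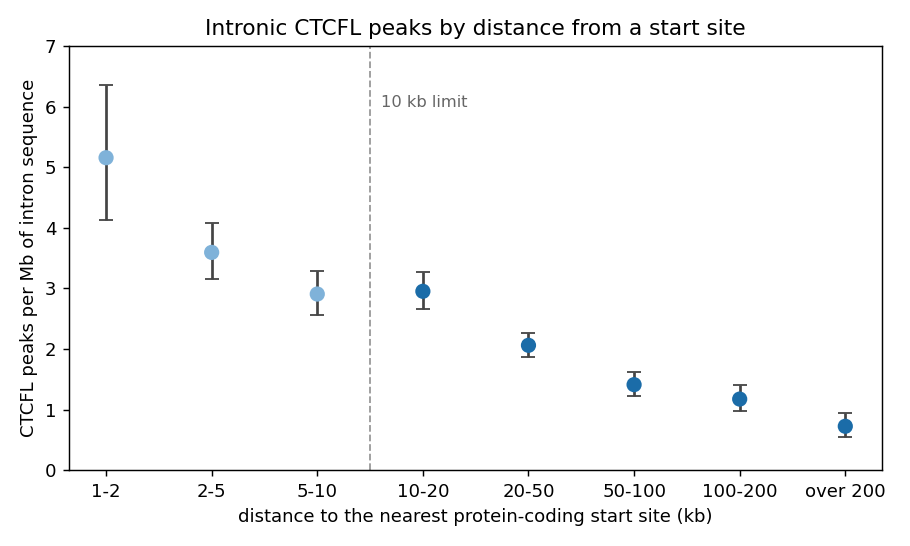
CTCFL peaks per Mb of intron sequence (vertical axis) against the distance to the nearest protein-coding TSS in kb (horizontal axis, 8 classes). Points are densities and bars are exact 95% Poisson intervals, light points lie within the 10 kb limit (dashed line), and the density of members goes from 2.95 at 10 to 20 kb to 0.725 beyond 200 kb.

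The members nearest the limit were in Pde4d and Gm2382, both at 10.01 kb from a TSS, and in Nek3 at 10.02 kb, and were 403, 818 and 257 bp wide. Just outside it were peaks in Cdkl4 at 9.95 kb, Tmem200a at 9.88 kb and Afp at 9.88 kb, with widths of 544, 384 and 291 bp. The farthest member, at 787.1 kb, lay in Il1rapl1, which encodes a synaptic adhesion protein on the X chromosome. It was followed by members in 5033411D12Rik at 722.3 kb and in the protocadherin gene Pcdh9 at 671.2 kb, the last with only 18.8% of its windows unique. None of these 3 had a match at up to 1 mismatch.

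Among chromosomes, the X stood lowest. It held 10 members in 30.6 Mb, or 0.327 per Mb (0.157 to 0.602), whereas autosomes ranged from 1.15 per Mb on chromosome 6 to 2.72 on chromosome 8. The interval of the X lay below that of every autosome, and no test was made. The Y chromosome had no member in 0.424 Mb. The high value on chromosome 8 included the members of the gene model Gm20388, described below.

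The host introns had a median length of 17.1 kb, and the median member lay 3.03 kb from the closest splice site of its intron. A distance of under 1 kb was found for 325 members (27.8%, 25.3 to 30.4%). First introns held 251 members (21.5%, 19.2 to 23.9%), judged in the transcript of each host gene with the shortest intron around the center. First introns of any protein-coding transcript made up 27.02% of the sequence that met the rule. This second definition is wider, so the shares cannot be compared. A total of 25 members lay in introns of several genes.

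The members were narrow and poor in CpG. Their median width was 410 bp (quartiles 331 and 504), the same as for intergenic peaks, beside 447.5 bp for intronic peaks nearer a TSS and 515 bp for promoter peaks. A width at or above the median of all peaks, 454 bp, was found in 37.3% of members and in 65.4% of promoter peaks, which was 28.1 percentage points fewer (two-sided Fisher's exact test with Benjamini-Hochberg adjustment over 21 comparisons of classes, adjusted exact p = 2.20e-55). Against intronic peaks nearer a TSS the members were 11.4 points lower (adjusted exact p = 1.54e-05, Fisher's exact test), but for a width of 800 bp or more the difference was -1.53 points and did not pass (adjusted exact p = 0.10). Against intergenic peaks the difference was -1.49 points and did not pass (adjusted exact p = 0.421).

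Only 17 members (1.45%, 0.909 to 2.32%) were CpG-rich, that is, had a GC content of at least 50% and an observed to expected CpG ratio of at least 0.6. The share was 63.8% at promoters, and the p-value of that comparison was too small to be represented. It was 6.77% in intergenic peaks (adjusted exact p = 8.27e-13, Fisher's exact test) and 5.46% in intronic peaks nearer a TSS (adjusted exact p = 1.24e-05). On this measure the members thus also differed from intergenic peaks, which had the same median width. The 10 kb limit did not apply to intergenic peaks, so the classes were not matched for distance from a TSS. With a GC content of at least 55% and a ratio of at least 0.75, the difference from intronic peaks nearer a TSS was -0.767 points and did not pass (adjusted exact p = 0.177). The median GC content was 49.1% in members and 45.4% in windows of equal width centered 2 kb to either side. The median CpG ratio was 0.215 in members, 0.192 in those windows and 0.702 in promoter peaks.

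**Figure D2:**
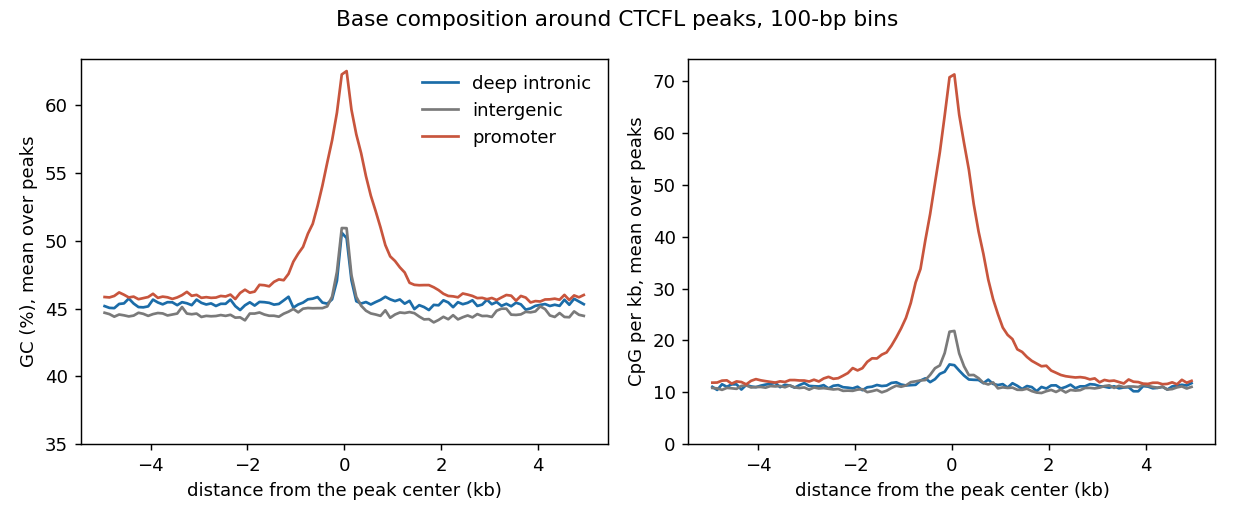
Mean GC content in percent (left) and CpG per kb (right) in 100-bp bins against the distance from the peak center in kb, for deep intronic, intergenic and promoter peaks. Over deep intronic peaks GC content reached 50.6% next to the center from 45.2% near 5 kb, and CpG reached 15.4 per kb, beside 71.3 per kb at promoters.

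Some of the widest members were CpG-rich. The member in Rapgef5 was 1054 bp wide with 63.1% GC and a CpG ratio of 0.795, and the one in Tns1, which encodes the focal adhesion protein tensin, was 826 bp wide with 63.1% GC and a ratio of 0.623. The other wide members, in Mreg (1101 bp), Zfp516 (1020 bp), Gse1 (993 bp), Acvr2b (946 bp), Itpkb (896 bp), Myom2 (893 bp), Unc13a (875 bp) and Usp10 (827 bp), had CpG ratios below 0.6. Of these 10 widest members with at least 90% unique windows, Zfp516 had an exact match and Acvr2b and Unc13a had matches with 1 mismatch.

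Most members could be mapped without ambiguity. All 36-base windows, the length of the reads, were unique in the genome in 995 members (85.0%), and under 90% were unique in 53 (4.53%). This share was 8.51% in intergenic peaks (difference -3.98 points, adjusted exact p = 2.97e-05, Fisher's exact test) and 3.97% in promoter peaks (adjusted exact p = 0.421). With windows under 50% unique as the criterion, the difference from intergenic peaks was -0.786 points and did not pass (adjusted exact p = 0.0829).

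The consensus was concentrated in the members relative to the sequence beside them. It follows the motif that the paper derived from binding sites of this series, so the test against flanks is no independent evidence. At up to 1 mismatch, 402 members had a match (34.4%, 31.69 to 37.13%), beside 28 of 2340 flanking windows (1.20%) and 43.9% of all peaks (odds ratio against flanks 43.2, Fisher's exact test, two-sided, p = 7.80e-176). Exact matches were found in 119 members (10.2%), in 0.128% of flanks and in 12.8% of all peaks. At up to 2 mismatches 780 members had a match (66.7%) and 19.0% of flanks did, which left 390 members with none. The best match at up to 1 mismatch lay at a median of 40.5 bp from the center, and in 351 of 402 members (87.3%) it lay within 100 bp. It was on the strand of the host gene in 181 of 398 members (45.5%, 40.7 to 50.4%).

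A match was less frequent than at promoters. At up to 1 mismatch the members were 19.2 percentage points below the 53.6% of promoter peaks (adjusted exact p = 2.39e-26, Fisher's exact test), and in the central 200 bp, where peak width has no part, 28.7% stood against 40.9% (adjusted exact p = 4.41e-12). For the first 12 positions with no mismatch the difference was -3.70 points and did not pass (adjusted exact p = 0.0558). Promoter peaks also held several matches more often, with 2 or more in 11.4%, whereas this was true of 24 members (2.05%, adjusted exact p = 7.73e-25). Exact matches were also denser in promoter sequence as a whole, at 7.80 per Mb against 0.882 per Mb in deep introns. How far this enters the differences was not tested.

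In intergenic peaks a match was found in 36.8%, and the comparison did not pass (difference -2.39 points, adjusted exact p = 0.231). This depended on the setting, since the difference was -8.02 points and passed when peaks narrower than 454 bp were left out (adjusted exact p = 0.0128), and 1.59 points at up to 2 mismatches (adjusted exact p = 0.406). Intronic peaks nearer a TSS had a match in 39.4%, and the difference of -5.06 points did not pass after adjustment (p = 0.0399, adjusted exact p = 0.0698, Fisher's exact test). At up to 2 mismatches the latter difference was -9.78 points and passed (adjusted exact p = 4.46e-05).

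**Figure D3:**
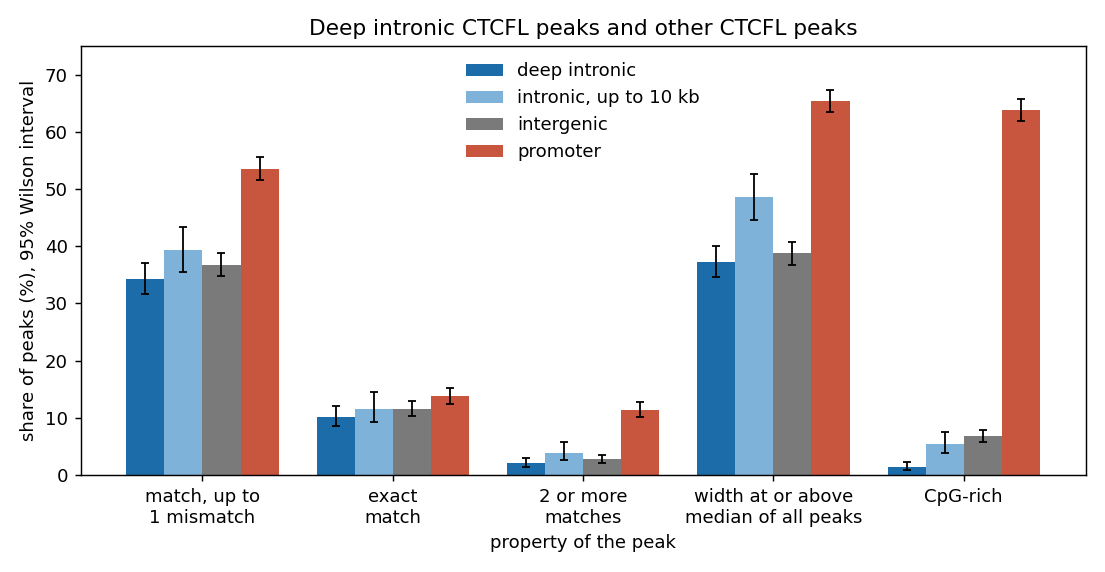
Share of peaks in percent (vertical axis, bars with 95% Wilson intervals) with each of 5 properties, for 1170 deep intronic, 586 other intronic, 2245 intergenic and 2344 promoter peaks. The deep intronic bars lie next to the intergenic ones for matches and width, below all others for CpG-rich composition, and below the promoter bars throughout.

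By the closeness of the best match, the median width was 436 bp with an exact match, 435 bp with 1 mismatch and 446 bp with 2 mismatches, but 367 bp in the 390 members with more. Those 390 also had the lowest median GC content, 45.3%, against 51.2% with an exact match. A width at or above 454 bp was more frequent among members with a match at up to 1 mismatch (43.8%) than among the rest (33.9%, adjusted exact p = 0.0028 over 6 comparisons within members, Fisher's exact test). Matches were searched over the whole peak, so a wider peak had more sequence in which to match. The part of this in the width differences was not tested.

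Members at 10 to 20 kb and beyond 100 kb from the TSS differed in width and, over the whole peak, in matches. Of members at 10 to 20 kb, 41.9% reached 454 bp, against 26.9% of those beyond 100 kb (adjusted exact p = 0.0028, Fisher's exact test). A match was found in 34.9% and 25.1% (adjusted exact p = 0.0471), but for the central 200 bp the shares of 29.2% and 21.6% did not pass (adjusted exact p = 0.116). First and later introns, judged in the same transcripts as above, had a match in 32.7% and 34.8% of members (adjusted exact p = 0.549), and 41.8% and 36.02% of members reached 454 bp (adjusted exact p = 0.126).

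Matches in members had the consensus base more often than matches at promoters at several positions. With all other fixed positions met, A at position 6 was found in 80.9% of matches in members and in 58.7% at promoters (adjusted exact p = 5.64e-06 over 30 comparisons, Fisher's exact test). G at position 7 was found in 127 of 127 matches in members and in 89.2% at promoters (adjusted exact p = 5.60e-05), and G at position 10 in 97.7% and 83.1% (adjusted exact p = 3.47e-05). C at position 2 was found in 94.8% and 80.8% (adjusted exact p = 2.71e-04). Where position 13 was free to vary, A was more frequent in members, at 24.5% against 10.3% (adjusted exact p = 1.16e-04). At position 3, which has no fixed base, A was found in 52.8% of exact matches in members and in 31.6% at promoters (adjusted exact p = 2.34e-04). Because matches are denser in promoter sequence, promoter peaks may hold more matches unrelated to binding. Whether such matches lower the promoter shares was not tested.

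These counts take every match of a peak, so copies within the same peak, such as those of Ctcfl described below, enter as separate observations. The comparisons were therefore repeated with the closest match of each peak, a choice made after seeing the data. The 6 differences from promoters given above passed again. Those at positions 2, 6, 7 and 10 were smaller, for example 80.4% and 66.8% at position 6 (adjusted exact p = 0.0109), and those at positions 3 and 13 larger. Those at positions 1, 4, 11 and 14 passed only with all matches, and the lower share of G at position 13 passed only with 1 match per peak (68.8% and 80.0%, adjusted exact p = 0.0255). Against intergenic peaks no comparison passed in both counts. G at position 4 passed with all matches (adjusted exact p = 0.0463) and not with 1 per peak (52.1% and 41.5%, adjusted exact p = 0.148), whereas A at position 13 did so only with 1 per peak (26.0% and 16.2%, adjusted exact p = 0.0362).

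**Figure D4:**
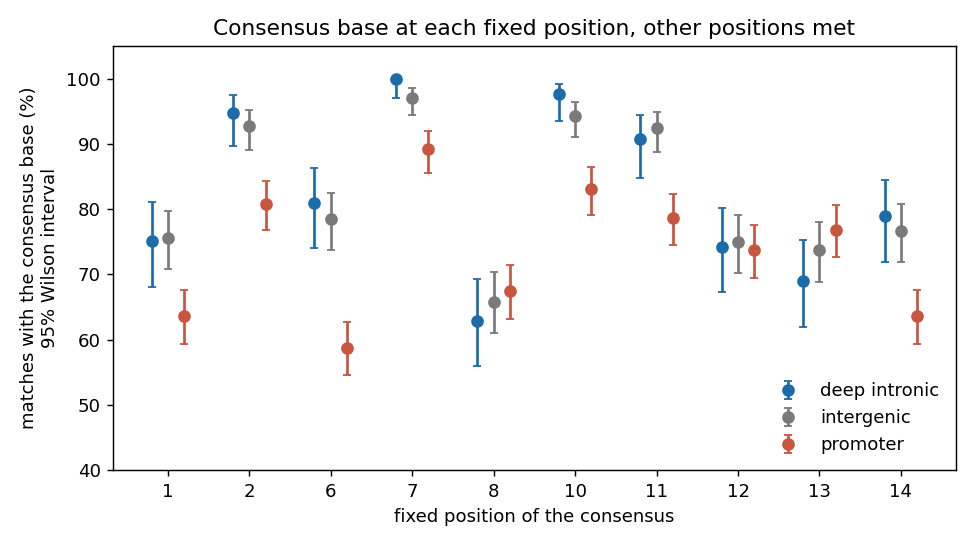
Share of matches in percent (vertical axis, from 40, points with 95% Wilson intervals) that carry the consensus base at each of the 10 fixed positions (horizontal axis) when all other fixed positions are met, with every match of a peak counted. The intervals of deep intronic and intergenic peaks overlap throughout. Promoter points lie lower than deep intronic ones, in comparisons that passed, at position 6 (58.7% against 80.9%) and at positions 1, 2, 7, 10, 11 and 14.

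Of the 283 members with 1 mismatch, 67 carried G8A (23.7%) and 45 carried G13A (15.9%), beside 12.3% and 4.18% of 932 promoter peaks. Of the 378 members with 2 mismatches, 108 carried G13A with C14G (28.6%, 24.2 to 33.3%), the form shown above in Syt7 and St3gal3. The pair made up 8.27% of promoter peaks with 2 mismatches and 3 of 417 flanking windows with 2 mismatches (0.719%). G8A with G13A came next, in 26 members (6.88%). These counts are a description, because the forms were picked from the same peaks. Intergenic peaks were not counted by form, so no form is shown to be particular to the members.

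The CpG of positions 12 and 13 was present in the best match of 410 of 780 members (52.6%) and in 74.0% of promoter peaks (adjusted exact p = 1.78e-26 over 3 comparisons, Fisher's exact test). These best matches had up to 2 mismatches, and 19.0% of flanks of members held such a match. Next to the center, promoter peaks had 71.3 CpG per kb and members 15.4. How far this enters the difference was not tested. Intergenic peaks had it in 56.7% (adjusted exact p = 0.0916) and intronic peaks nearer a TSS in 51.6% (adjusted exact p = 0.767), and neither comparison passed. Among the 768 members without a match at up to 1 mismatch, GGGGGCAG was found in 15.1% and in 1.30% of flanks, and AGAGGGCA in 12.9% and 1.95%, and none of the 10 leading words of 8 bases held a CpG. In members with a match, AGGGGGCG led, with 30.8% against 0.124% of flanks. The consensus fixes the CpG at positions 12 and 13, so members with and without a match were split in part on it. The presence or absence of CpG in these words thus follows partly from the split.

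Of other motifs, the GC box, GGGCGG, which Sp1 family factors bind, occurred in the central 200 bp of 7.18% of members, 2.70% of flanks (adjusted exact p = 1.23e-08 over 14 comparisons, Fisher's exact test) and 39.1% of promoter peaks. It shares GGCG with the consensus. The CCAAT box was found in 20.2% of members and 23.4% of flanks, which did not pass (adjusted exact p = 0.0889), but it was more frequent than in promoter peaks, where 16.0% held it (adjusted exact p = 0.0087). The E-box CACGTG was found in 3.16% of members and less often than in promoter peaks, at 5.84% (adjusted exact p = 0.0023). Against flanks neither the E-box passed nor the CRE TGACGTCA, the AP-1 site TGANTCA, the octamer ATTTGCAT or the Esrrb site TCAAGGTCA, and against promoter peaks the last 4 of these did not pass.

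Most exact matches in deep introns lay outside any peak. The sequence that met the rule held 570 exact matches, or 0.882 per Mb, of which 127 were in a peak (22.3%, 19.1 to 25.9%). Restricted to unique sequence, 121 of 553 were (21.9%), against 49.7% at promoters (adjusted exact p = 7.57e-23 over 11 comparisons, Fisher's exact test) and 23.5% in intergenic sequence (adjusted exact p = 0.607). Within deep introns the share was 28.7% at 10 to 20 kb and 10.99% beyond 100 kb (adjusted exact p = 0.0030). At up to 1 mismatch, 427 of 11010 matches in deep introns were in a peak (3.88%).

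Exact matches in a peak and those outside differed in sequence. G at position 9 was found in 64.5% of the 121 and in 39.4% of the other 432 (adjusted exact p = 5.61e-06, Fisher's exact test), and T at position 9 in 28.1% and 40.7% (adjusted exact p = 0.0205). A GC content of at least 50% in the surrounding 200 bp was found in 75.2% and 50.9% (adjusted exact p = 5.61e-06), and 5 or more CpG in 45.5% and 24.8% (adjusted exact p = 6.55e-05). C at position 5 (51.2% and 39.8%, adjusted exact p = 0.0451) no longer passed when 1 of the matches within 1 kb of each other was kept (adjusted exact p = 0.0562), a choice made after seeing the data. A at position 3 (54.5% and 64.4%, adjusted exact p = 0.0773), C at position 3 and G at position 4 did not pass in either count.

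The members were spread over 996 host genes. Of these, 856 held 1 member, 106 held 2, 29 held 3 and 5 held 4 or more. Among protein-coding genes with at least 1 kb of sequence meeting the rule, 994 of 10540 were hosts (9.43%). The share of hosts was 5.25% in genes with under 50 kb of such sequence and 44.0% in those with over 500 kb, while the members per Mb were 3.33 and 1.004. Long genes thus held a member more often, at a lower density.

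Gm20388 had the most members, 22, of which 8 had a match at up to 1 mismatch and none an exact one. This model spans 4435 kb of chromosome 8, with an intron of 4384 kb that runs across many other genes, among them Usp10, Gse1 and Nup133. Fgfr2, a receptor for fibroblast growth factors, had 5 members, all in an annotated intron of 2957 kb that extends over Tacc2, Lhpp and Fam175b. Without transcripts that have an intron over 1 Mb, a choice made after seeing the data, 1151 members remained.

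Agap1, a GTPase-activating protein of the Arf family, had 5 members (12.03 per Mb, 3.91 to 28.1). The first from the 5′ end, chr1:91477658-91478196, was 539 bp wide with 72.7% GC, and carried C1G and A6G. Next to it, chr1:91502999-91503684, was 686 bp wide and carried G8A at 2 bp from its center. The next, chr1:91543054-91543760, was 707 bp wide and had the G13A and C14G form. Another, chr1:91626951-91627433, was 483 bp wide with an exact match, and the last, chr1:91654131-91654628, was 498 bp wide and carried C12A. The 5 members thus carried 5 different forms of the site.
Agap1 (chr1:91477773-91477816, plus strand): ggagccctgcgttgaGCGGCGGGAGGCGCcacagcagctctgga
Agap1 (chr1:91503322-91503365, minus strand): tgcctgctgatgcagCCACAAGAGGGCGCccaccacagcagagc
Agap1 (chr1:91543376-91543419, plus strand): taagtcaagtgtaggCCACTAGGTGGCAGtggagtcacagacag
Agap1 (chr1:91627224-91627267, minus strand): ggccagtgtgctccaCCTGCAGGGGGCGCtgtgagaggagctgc
Agap1 (chr1:91654299-91654342, plus strand): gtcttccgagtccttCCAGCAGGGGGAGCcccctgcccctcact

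St6galnac3, a sialyltransferase, also had 5 members (9.96 per Mb), between 311 and 454 bp wide. The one in intron 1 had an exact match at 2 bp from its center, and the 4 in intron 3 had 2 mismatches or more. Pard3b, a cell polarity gene of 1003 kb, had 4 members, none with a match at up to 1 mismatch. Kdm2b, a histone demethylase that binds unmethylated CpG, had 3 members in 44.8 kb of sequence meeting the rule, in introns 4, 9 and 11. Fntb, Clic5, Ift80 and Map4k4 had 3 each, of which 1 per gene had a match at up to 1 mismatch.

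**Figure D5:**
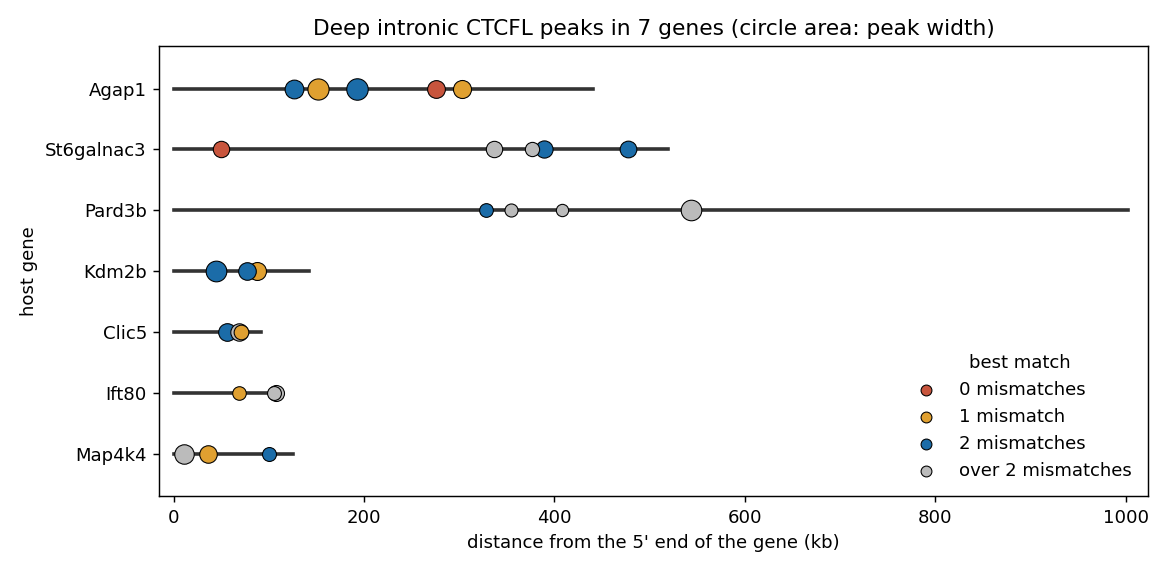
Position of members (circles, area in proportion to peak width) along 7 host genes (lines), as the distance from the 5′ end of the gene in kb (horizontal axis), colored by mismatches in the best match. Agap1 and St6galnac3 have 5 members each, with 1 exact match in each gene, and Pard3b has 4.

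Neighboring members of the same gene were usually far apart. The 199 such pairs had a median spacing of 53.45 kb, and 29 were closer than 10 kb. The closest lay in Ift80, an intraflagellar transport gene, at 1434 bp, where neither member had a match at up to 2 mismatches. The next was in Litaf at 1533 bp, where both had a match with 1 mismatch.

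Among genes for chromatin and DNA methylation, 9 of 25 were hosts, with 14 members (5.48 per Mb, 3.00 to 9.20). Of all genes with at least 1 kb of sequence meeting the rule, 9.43% were hosts, and all such sequence held 1.81 members per Mb. Gene length goes with both values and was not matched, so this list is not compared with them. The 9 hosts were Dnmt3a, a de novo DNA methyltransferase, the histone deacetylase Hdac4, the demethylases Kdm2a and Kdm2b, the Polycomb cofactor Jarid2, the remodelers Smarca4 and Chd7, the acetyltransferase Myst4 (Kat6b) and Prdm16. The Dnmt3a member lay in intron 1 at 10.1 kb from a TSS and carried C14T. Myst4 had 3 members, among them an exact match in intron 2 and a G13A and C14G form in intron 15.

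Of pluripotency genes, 7 of 15 had sequence that met the rule, and Esrrb and Tcfcp2l1 (Tfcp2l1), both transcription factors of the naive ES cell state, were hosts, with 3 members in 0.210 Mb. The Esrrb members, both in a first intron, were 461 and 367 bp wide and carried G8A and G13T. The Tcfcp2l1 member was 262 bp wide and had no match at up to 2 mismatches. Among male germ cell genes, 1 of 13 with such sequence was a host, the retinoic acid receptor gene Rarb.

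Neural adhesion and axon guidance genes held 10 members in 23.7 Mb (0.421 per Mb, 0.202 to 0.775). The hosts were 8 of 25, namely Slit3, Nrxn2, Nrxn3, Dscam, Ctnna2, Ctnna3, Cdh4 and Ptprn2. Of signaling receptor and kinase genes 7 of 20 were hosts, with 15 members (1.98 per Mb). These included the 5 of Fgfr2, which lay in the long annotated intron described above that extends over other genes. The lists differ in gene length, which goes with both the share of hosts and the density, so neither is compared between lists or with the 9.43% of all genes.

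For insulator proteins and their partners 14 gene symbols were listed, of which Zfp143 and Znf143 name the same gene. Ctcfl and the cohesin subunit gene Stag1 were the 2 hosts. The Ctcfl member, chr2:172922674-172923268, lay in intron 9 and was 595 bp wide. It had 7 matches at up to 1 mismatch, of which 6 were exact, the highest number among members. A total of 82.0% of its windows were unique, so it was below the limit of 90%. Its central 300 bases are shown on the plus strand, with capitals at 6 matches that read on the minus strand.
Ctcfl (chr2:172922821-172923120, plus strand): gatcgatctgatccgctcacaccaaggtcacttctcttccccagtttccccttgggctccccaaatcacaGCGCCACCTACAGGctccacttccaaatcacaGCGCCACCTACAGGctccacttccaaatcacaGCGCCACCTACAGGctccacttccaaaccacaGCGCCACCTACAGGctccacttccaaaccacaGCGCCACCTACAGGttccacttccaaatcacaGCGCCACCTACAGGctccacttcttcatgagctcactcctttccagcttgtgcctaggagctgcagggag
The Stag1 member was 216 bp wide, among the narrowest, and had no match at up to 2 mismatches.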

How the data were processed

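Chromatin of induced and of non-induced CTCFL_V5_GFP ES cells was precipitated with V5 antibody, and 36-bp reads were sequenced on the Genome Analyzer IIx. The authors deposited 1 list with the start and end of 7436 CTCFL peaks of the induced cells on mm9. They mapped reads with ELAND and, for a comparative analysis, with BOWTIE and called peaks with MACS. Which of these made the list is not given in the sources used here, nor is the reason why it holds more peaks than the paper reports. The number of reads per peak is unknown, and no value columns were left unmapped (0).

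Starts were converted to count from 1. Peaks were placed on the NCBIM37 genome, the assembly of mm9, with GENCODE vM1. The consensus was searched on both strands with up to 1 mismatch. Shares were compared by two-sided Fisher's exact tests with Benjamini-Hochberg adjustment in each family and a threshold of 0.05, in Python 3.11.15 with numpy 2.4.6, scipy 1.17.1 and numba 0.67.0. Shares have Wilson and densities exact Poisson intervals, at 95%. The search was tested on simulated sequences and found 600 of 600 planted sites.

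The members, gene lists and form of the consensus were chosen with earlier results of these data known. The form of 14 positions was settled on in that earlier work after several forms had been seen, and the results with 0 and 2 mismatches and with the first 12 positions are given beside it. It follows the motif that the paper derived from peaks of this series, so the tests of matches against flanks are not independent of it. Several tests were chosen after tables of bases and words had been seen. These are the 30 of bases by position, the 11 of matches in and outside a peak, the 6 within members, the 3 of the CpG at positions 12 and 13, and, among the 21 of classes, those of 2 or more matches. Their p-values are thus not those of tests chosen beforehand. The substitutions, words of 8 bases and gene lists were counted with no test.

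Genes and peaks were named by rule: the 10 widest members with at least 90% unique windows, exact matches nearest the center, at most 10 genes with 3 or more members, the 3 members farthest from a TSS, the 3 on either side of the 10 kb limit, and hosts in the gene lists. Syt7, Sh3pxd2a, St3gal3 and Litaf fall outside it and were named after their values were seen. The share of peaks in repeats was not computed, because the genome used does not mark them.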

Additional observations from a re-analysis of the deposited data

How the results depend on the processing

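A total of 68 alternatives were run for 23 results, and in 57 the sign and the call were unchanged, or the value stayed within the interval or within 1.5 times the count. For class comparisons the adjusted p was compared, with the p of the alternative put in the place of the main one among the 21. With starts of all annotated transcripts the density was 2.54 per Mb at 10 to 20 kb, 1.69 at 20 to 50 kb and 1.18 at 50 to 100 kb, each below its interval. The share of matches in a peak was 3.88% when 1 mismatch was allowed. Minus intronic peaks nearer a TSS, the difference in matches was -9.78 points at up to 2 mismatches and passed, that in width was -1.53 points for 800 bp or more and did not pass, nor did that in CpG-rich peaks of -0.767 points with a GC content of at least 55% and a ratio of at least 0.75. Minus promoter peaks, the difference in matches was -3.70 points for the first 12 positions and did not pass. Minus intergenic peaks, it was 1.59 points at up to 2 mismatches, a change of sign in a difference that passed under neither setting, and -8.02 points when peaks narrower than the median were left out, which passed. The difference in peaks of low uniqueness was -0.786 points at under 50% and did not pass. The cause of these changes was not tested.

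The number of members ranged from 786 at over 20 kb to 1431 at over 5 kb from a TSS, and was 1151 and 1170 without transcripts with long introns and with neighbors merged. Of 30 comparisons by position, 11 passed with all matches and 8 with 1 per peak. Matches in unique sequence, 1 match per peak or per 1 kb and the removal of long introns were chosen after seeing the data. No paired analysis was possible because the induced and the control cells gave 1 library each. No replicate could be left out for the same reason.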
